A study of Homo sapiens with 6 samples.

Results

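COL17A1 and 6 partner transcripts of the hemidesmosome, ITGA6, ITGB4, LAMA3, LAMB3, DST and PLEC, are described here, out of 37887 gene rows. They were taken by gene symbol, and all 7 were among the 15355 genes with enough counts to test. COL17A1 was selected on its rise between the control and shMUC1 libraries compared below, where it ranked 4 among 15355 genes by log2 fold change, and the other 6 for their role in the same structure with that comparison known. The values of the 7 genes are therefore given as a description with no p-value.

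Hemidesmosomes rivet epithelial cells to the basement membrane. In the plasma membrane, collagen XVII (COL17A1) and integrin α6β4 (ITGA6 and ITGB4) reach outward to laminin-332, a trimer that holds the LAMA3 and LAMB3 chains. Inside the cell, plectin (PLEC) and the epithelial form of dystonin (DST) tie both receptors to keratin filaments. In the mammary gland these contacts are found in cells resting on the basement membrane.

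RNA was sequenced from MDA-MB-436, an established triple-negative breast cancer line with a BRCA1 mutation, in which every library carried the same stable, tetracycline-inducible MUC1 shRNA. The control group received 0.1% DMSO as vehicle and the shMUC1 group 500 ng/ml doxycycline (DOX), with 3 libraries each and no treatment time in the labels. No DOX-treated library with a scrambled shRNA was analysed here, so MUC1 silencing and DOX itself cannot be told apart, and 1 shRNA in 1 line limits the model. In the sample titles the controls bear the name of a control shRNA, but their treatment label is DMSO, and they were taken as vehicle-treated cells with the MUC1 shRNA.

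The targeted gene gave 93, 84 and 102 counts in control and 72, 51 and 34 counts in shMUC1 libraries. In CPM, counts scaled to a common library size, MUC1 fell from 3.88 ± 0.401 to 2.14 ± 0.412 (SD, n = 3), a log2 fold change of -0.84 ± 0.214 (SE, adjusted p = 0.00119, edgeR quasi-likelihood test). Library totals ran from 18678307 to 27825546 counts, and the floor of 3 counts was 0.161 CPM in the shallowest library. Markers of the line (KRT8, KRT18, KRT7 and VIM) summed to 1265 to 1284 CPM in control and 1488 to 1525 CPM in shMUC1 libraries. Within this sum the keratins KRT8 (log2 fold change 0.95, adjusted p = 1.05e-24) and KRT18 (1.02, adjusted p = 2.53e-23) rose, the mesenchymal filament gene VIM fell by 0.78 on the log2 scale (adjusted p = 2.10e-20, all edgeR), and KRT7 was not called. Among markers of other cells, the sum for leukocytes ran from 3.08 to 3.41 CPM and then from 5.48 to 8.54 CPM, with CD3E and LST1 at 0 throughout and both of the 2 tested genes of 5 called higher. The sum for fibroblasts ran from 9.07 to 11.8 CPM and then from 4.30 to 5.14 CPM, with DCN and LUM at 0 throughout. Of 3 tested fibroblast genes, 2 were called lower, where 25.2% of all genes were called higher and 23.6% lower. A list of 7 markers of well-differentiated epithelial lines summed to 0.639 to 1.66 CPM in control and 0.815 to 1.08 CPM in shMUC1 libraries. Of these 7, 1 was tested, ESRP2, and it was not called (log2 fold change -0.23, adjusted p = 0.719, edgeR). The part of these marker values in the results below was not tested. In bulk RNA, more cells expressing a gene and more RNA per cell cannot be told apart.

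Across the 7 genes, 6 were called higher in shMUC1 libraries and 1, DST, was called lower at an adjusted p under 0.05. Among all 15355 genes, 25.2% were called higher and 23.6% lower, and nothing is read from the members' count because their comparison chose them. With a fold change over 2 also required, COL17A1 and LAMB3 were higher and none was lower, where 2.21% and 3.74% of all genes were called higher and lower. In CPM, the 3 libraries of one group lay entirely above the 3 of the other for each of the 7 genes, 6 upward and 1 downward, as they did upward for 28.1% and downward for 26.8% of all tested genes. The median log2 fold change was 0.66 over the 7 genes and 0.000583 over all tested genes.

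**Figure D1:**
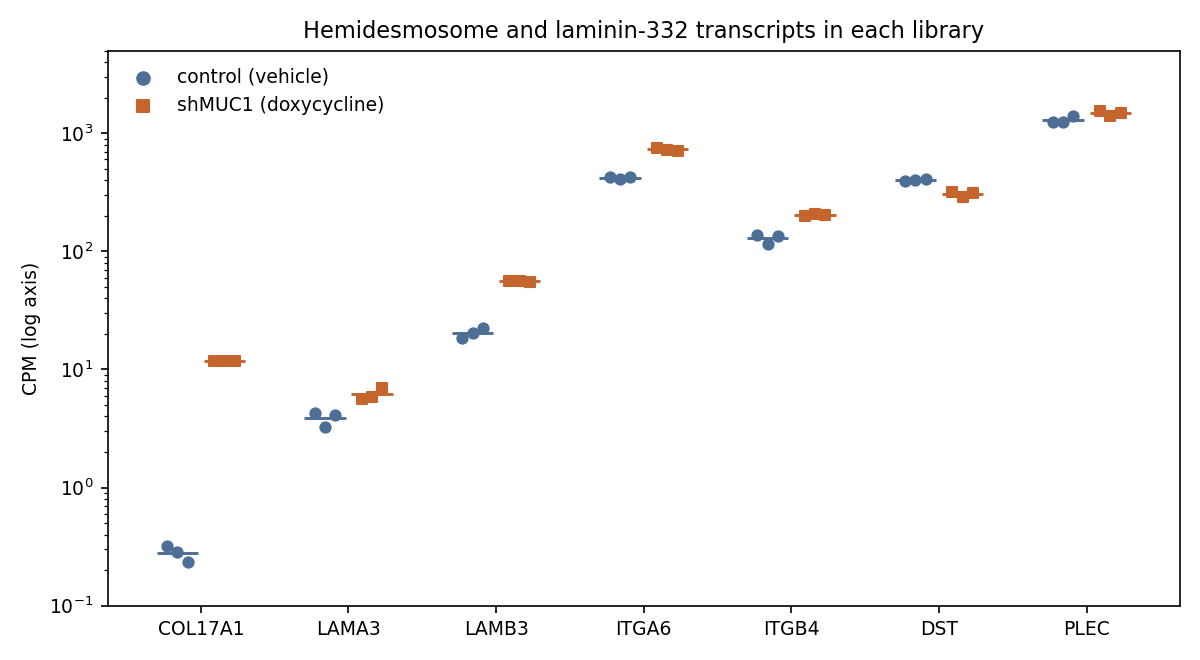
Each point is 1 library, with CPM on a log axis for the 7 genes, circles for the 3 control and squares for the 3 shMUC1 libraries, and a bar at the group mean. COL17A1 moved from 0.280 to 11.8 CPM and LAMB3 from 20.4 to 55.8 CPM, DST went the other way, and PLEC shifted least.

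COL17A1 encodes collagen XVII, the transmembrane collagen (BP180) whose ectodomain crosses from the basal cell surface into the basement membrane. The gene lies on the minus strand at chr10:104031286-104085957 (GRCh38). Its counts were 7, 7 and 6 in control libraries against 328, 304 and 218 in shMUC1 libraries, or 0.319, 0.287 and 0.232 CPM against 11.9, 11.8 and 11.7 CPM. The control libraries held only a few reads each, above the floor, and the shMUC1 libraries lay far above them and close together. Means of 0.280 ± 0.0440 and 11.8 ± 0.0766 CPM (SD, n = 3) gave a 42.2-fold ratio and a log2 fold change of 5.38 ± 0.219 (SE). The summed counts of 20 in control (95% Poisson interval 12.2 to 30.9) and 850 in shMUC1 libraries (794 to 909) show that counting error weighs on the control level, and these intervals cover counting error only. About 70% of small values in the table were even, as they would be if a fragment added 2 counts. With halved counts the control sum of 10 has a wider relative interval, 4.80 to 18.4, and each control library would lie near the floor of 3 counts.

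The reference sequence at the start of COL17A1 is shown because this gene changed most among the 7. The RefSeq window (GRCh38.p14), mostly upstream of its start and reaching into the first exon, is chr10:104085831-104086130, minus strand.
COL17A1: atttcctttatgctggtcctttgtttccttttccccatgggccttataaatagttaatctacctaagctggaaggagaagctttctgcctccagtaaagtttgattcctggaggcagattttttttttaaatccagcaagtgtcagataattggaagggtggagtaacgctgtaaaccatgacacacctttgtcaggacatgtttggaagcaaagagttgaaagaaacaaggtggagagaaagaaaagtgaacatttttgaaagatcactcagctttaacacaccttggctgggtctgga
The window was searched on both strands for the E-box CACCTG, a word bound by ZEB and SNAIL factors, for the AP-1 word TGANTCA and for the GC box CCGCCC. It held none of these letters, as its lower case shows. Among all 35116 promoter windows of this length, 20.6% held the E-box, 7.71% the AP-1 word and 45.0% the GC box. Among the 16341 windows of tested genes, these shares were 18.7%, 5.52% and 64.8%. A match or its lack is a property of the letters and was not compared with any measure of binding.

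The nearest tested genes around COL17A1 were read in the same fit. SLK, a kinase gene 2.05 kb beyond its 3' end, had 89.4 ± 3.60 CPM in control and 94.9 ± 2.71 CPM in shMUC1 libraries (SD, n = 3) with overlapping groups (log2 fold change 0.09, adjusted p = 0.108, edgeR). STN1, which encodes a telomere-capping protein, lay 113 kb away and had a log2 fold change of -0.02 (adjusted p = 0.938, edgeR). On the other side, SFR1, a recombination cofactor gene 36.1 kb away, rose from 13.0 ± 0.365 to 18.9 ± 0.429 CPM (log2 fold change 0.55 ± 0.0928 SE, edgeR adjusted p = 5.94e-06). CFAP43, a cilia and flagella gene 43.9 kb away, had 2.74 ± 0.349 and 3.0 ± 0.565 CPM (adjusted p = 0.610, edgeR). Of these 4 neighbours, SFR1 was called and the others were not, and each differed between groups by far less than COL17A1.

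Laminin-332 is the ligand of integrin α6β4, and its LAMB3 and LAMA3 chain genes belong to the 7. LAMB3 (minus strand, chr1:209614870-209652466) had 403, 499 and 577 counts in control and 1539, 1448 and 1034 counts in shMUC1 libraries. In CPM these were 18.4, 20.5 and 22.3 against 55.7, 56.2 and 55.6, and every shMUC1 library lay well above every control library. The means of 20.4 ± 1.98 and 55.8 ± 0.343 CPM (SD, n = 3) corresponded to a 2.74-fold ratio and a log2 fold change of 1.45 ± 0.0690 (SE). LAMA3 (plus strand, chr18:23689443-23956222) was far lower, with 93, 80 and 106 counts in control and 155, 151 and 130 counts in shMUC1 libraries. It had 4.24, 3.28 and 4.10 CPM in control and 5.61, 5.86 and 6.99 CPM in shMUC1 libraries. All 3 shMUC1 libraries stood above the controls, by a margin smaller than for LAMB3. The LAMA3 means were 3.88 ± 0.518 and 6.15 ± 0.734 CPM (SD, n = 3), and its log2 fold change of 0.66 ± 0.165 had the second widest SE of the 7.

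The starts of the 2 laminin genes are set beside each other because both were higher, by different amounts. Capitals mark the 3 words searched for COL17A1, on either strand (a reversed E-box reads CAGGTG). In LAMA3, an E-box and an AP-1 word overlap in 1 run of capitals.
LAMB3, chr1:209652376-209652675, minus strand: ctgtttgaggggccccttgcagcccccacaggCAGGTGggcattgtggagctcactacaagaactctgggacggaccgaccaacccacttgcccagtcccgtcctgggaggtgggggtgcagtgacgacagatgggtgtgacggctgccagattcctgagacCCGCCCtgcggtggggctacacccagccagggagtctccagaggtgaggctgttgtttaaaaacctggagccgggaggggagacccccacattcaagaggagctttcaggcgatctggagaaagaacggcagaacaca
LAMA3, chr18:23872770-23873069, plus strand: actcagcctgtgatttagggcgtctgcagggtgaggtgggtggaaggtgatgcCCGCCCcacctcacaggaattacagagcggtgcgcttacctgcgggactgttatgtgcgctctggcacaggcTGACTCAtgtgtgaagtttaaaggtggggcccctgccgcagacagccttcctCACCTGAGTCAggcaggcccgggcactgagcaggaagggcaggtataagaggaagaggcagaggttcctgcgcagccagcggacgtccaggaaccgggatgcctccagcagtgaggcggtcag
This LAMB3 window held 1 E-box and 1 GC box. RefSeq lists 3 windows for LAMB3, of which the other 2 held no E-box and 1 held an AP-1 word. The LAMA3 window lies inside the gene, at the start of a shorter transcript, and held 1 E-box, 2 AP-1 words and 1 GC box. The counts sum all transcripts of a gene, so they do not say from which start the reads came. For ITGA6, the 2 listed windows held 2 and 0 E-boxes, and for DST none of the 3 did. No window of ITGB4 or PLEC is described here.

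The laminin chains were next compared per length, as CPM per kilobase of merged exons (RPKM), within each chain class. Shares with another gene length were not computed. LAMB3 made up 8.96% ± 0.579 of beta-chain RPKM in control and 22.5% ± 0.218 in shMUC1 libraries (SD, n = 3), while LAMB1 went from 39.6% to 27.6% and LAMB2 from 51.5% to 49.8%. LAMA3 made up 0.929% ± 0.154 and then 1.49% ± 0.219 of alpha-chain RPKM, against 84.0% and 88.5% for LAMA5. Thus the alpha chain of laminin-332 stayed a small share of its class in both groups, with LAMA5 the main alpha chain at the RNA level.

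**Figure D2:**
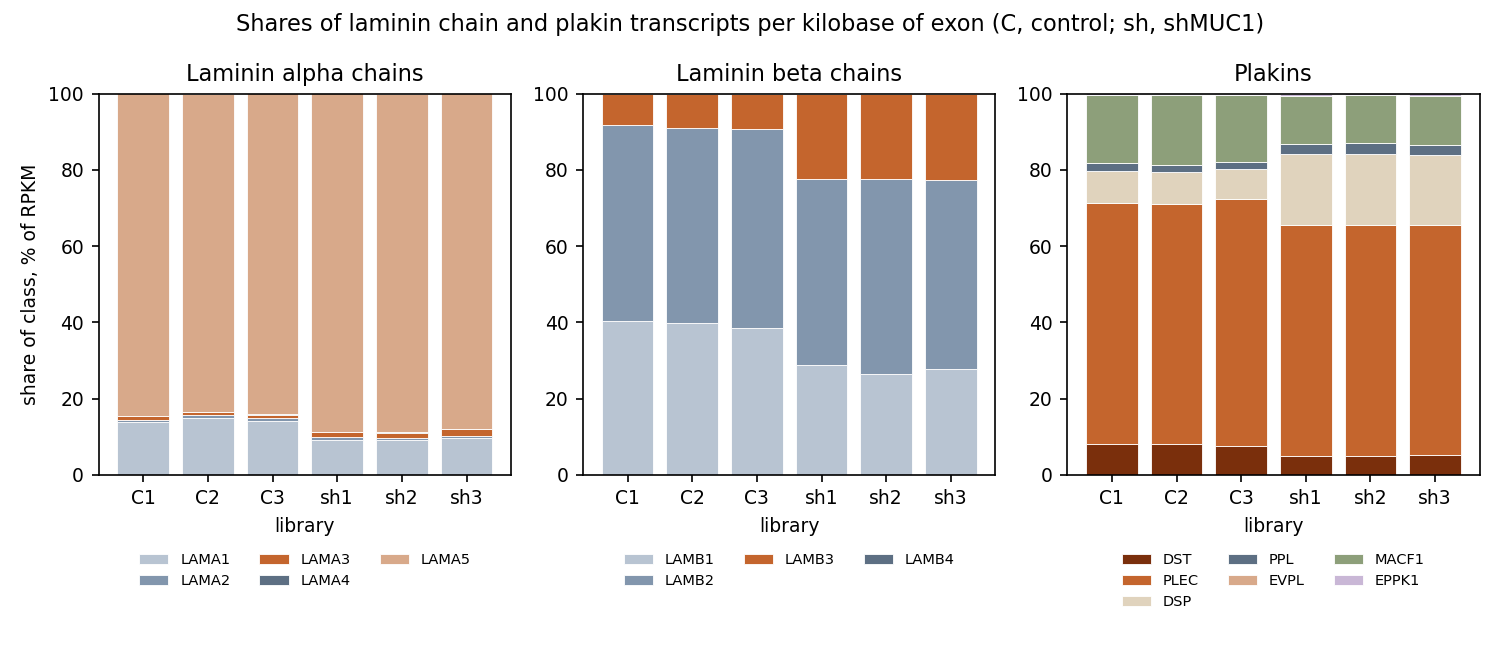
Stacked bars give each gene's share, in percent of the RPKM of its class, for 3 control (C1 to C3) and 3 shMUC1 libraries (sh1 to sh3), in panels for laminin alpha chains, laminin beta chains and plakins, with LAMA3, LAMB3, PLEC (orange) and DST (brown) set off from the others. LAMB3 took a larger share in all 3 shMUC1 libraries, LAMA3 stayed under 2% of alpha chains, and DSP went from 8.14% to 18.6% of plakins. All shares are per kilobase of merged exons and depend on that length.

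Of the other laminin chains, 9 were listed and 8 tested, of which 3 fell, 5 were not called and 0 rose (median log2 fold change -0.17). Over all tested genes, 23.6% were called lower and 25.2% higher. Neither this list nor those below were tested as a set. LAMC3 (-0.77, adjusted p = 0.000394), LAMA1 (-0.64, adjusted p = 1.68e-11) and LAMB1 (-0.39, adjusted p = 1.26e-10, all edgeR) fell. Without control replicate 3, LAMA5 and LAMB2 were called higher, which made 2. The count of 0 rises held in edgeR also at an unadjusted p under 0.05 (0 genes), and at an adjusted p under 0.05 in DESeq2 (0) and limma-voom (0).

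Integrin α6β4 is the receptor for laminin-332 and the core of the hemidesmosome, and its β4 tail binds plectin. ITGA6 (plus strand, chr2:172427354-172506282) had 9310, 10016 and 10948 counts in control and 20779, 18769 and 13253 counts in shMUC1 libraries. In CPM, 425, 411 and 424 stood against 752, 729 and 712, with all 3 shMUC1 libraries well above the controls. The means of 420 ± 7.54 and 731 ± 19.9 CPM (SD, n = 3) gave a 1.74-fold ratio and a log2 fold change of 0.80 ± 0.0303 (SE). Exons of ITGA6 share 351 bases with genes on the opposite strand, ITGA6-AS1 among them, and whether the counting used strand is not given in the sources used here.

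ITGB4 (plus strand, chr17:75721328-75757818) had 3043, 2829 and 3511 counts in control and 5470, 5350 and 3809 counts in shMUC1 libraries. It had 139, 116 and 136 CPM in control and 198, 208 and 205 CPM in shMUC1 libraries, and the groups did not overlap. The means were 130 ± 12.3 and 203 ± 5.01 CPM (SD, n = 3), and the log2 fold change was 0.64 ± 0.0452 (SE). Among control libraries, replicate 2 was the lowest.

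The 2 subunits pair in the membrane, so their transcripts were set against each other within each library, where the scaling between libraries cancels. The ratio of ITGB4 to ITGA6 RPKM was 0.316, 0.273 and 0.310 in control and 0.254, 0.275 and 0.278 in shMUC1 libraries. These ranges overlapped, with means of 0.30 ± 0.0232 and 0.269 ± 0.0129 (SD, n = 3) and a log2 difference of -0.15 beside SDs of 0.11 and 0.07 between libraries. By contrast, LAMA3 to LAMB3 was 0.0737, 0.0512 and 0.0587 in control and 0.0322, 0.0333 and 0.0402 in shMUC1 libraries. All 3 shMUC1 values lay under the controls, a log2 difference of -0.79, as LAMA3 was raised less than LAMB3. The ratio of COL17A1 to ITGB4 went from 0.00207 ± 0.000384 to 0.0555 ± 0.00163, so COL17A1 transcripts remained a small fraction of ITGB4 transcripts per length after DOX.

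**Figure D3:**
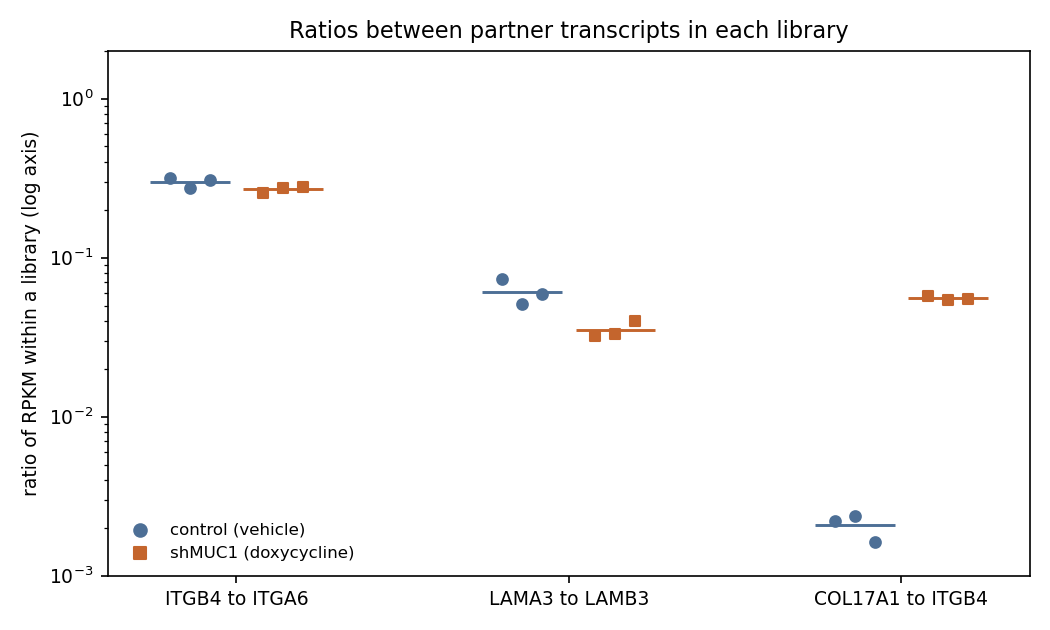
Ratios of RPKM between partner transcripts within each library, on a log axis, with circles for 3 control and squares for 3 shMUC1 libraries and bars at the means. The groups overlap for ITGB4 to ITGA6, are apart for LAMA3 to LAMB3, and are furthest apart for COL17A1 to ITGB4 (0.00207 and 0.0555).

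Other laminin receptors did not move as 1 group. Of 6 tested, 2 rose, 3 fell and 1 was not called (median log2 fold change -0.14), where 25.2% of all genes rose and 23.6% fell. ITGA3, the α3 chain of the other main laminin-332 receptor, fell by 0.61 on the log2 scale (adjusted p = 7.23e-18, edgeR). ITGA7, an α chain best known from muscle, changed by -2.08 (adjusted p = 1.10e-12, edgeR) and BCAM, a receptor for laminins with the α5 chain, rose by 0.66 (adjusted p = 6.39e-12, edgeR). The second rise was ITGB1, named after its values were seen, at 0.09 (adjusted p = 0.0373, edgeR), and it was lost in 6 of 14 alternatives (adjusted p from 0.00698 to 0.225).

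Plakins are long cytolinkers that join junctions to the cytoskeleton, and the 2 of the hemidesmosome went in opposite directions. PLEC (minus strand, chr8:143915147-143976734) had 27563, 30203 and 36213 counts in control and 42719, 36226 and 27648 counts in shMUC1 libraries. In CPM it had 1257, 1240 and 1402 against 1546, 1407 and 1486, so that the highest control and the lowest shMUC1 library nearly met. Its means of 1300 ± 89.0 and 1480 ± 69.9 CPM (SD, n = 3) gave the smallest log2 fold change of the 7 genes, 0.19 ± 0.0344 (SE).

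DST (minus strand, chr6:56457987-56954628) encodes BP230 in epithelia and longer forms in neurons and muscle, and the counts join them all. It had 8644, 9818 and 10601 counts in control and 8743, 7479 and 5811 counts in shMUC1 libraries. These were 394, 403 and 410 CPM against 316, 290 and 312 CPM, with every shMUC1 library under every control library. The means of 403 ± 8.10 and 306 ± 14.0 CPM (SD, n = 3) gave a ratio of 0.761 and a log2 fold change of -0.39 ± 0.0339 (SE). Which DST form was lower cannot be read from counts per gene.

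Among the other plakins, 4 of 5 were tested (median log2 fold change 0.90). Of these 4, 3 rose and 1 fell, where 25.2% of all genes rose and 23.6% fell. DSP, desmoplakin of the desmosome, rose from 2131, 2375 and 2597 counts to 7855, 6635 and 5006 counts (1.46 ± 0.0394 SE, adjusted p = 4.20e-27, edgeR). EPPK1 rose by 1.08 (adjusted p = 6.12e-09) and PPL, periplakin, by 0.72 (adjusted p = 1.12e-09, both edgeR), and EPPK1 counts are uncertain because its repeats are nearly alike. The 1 that fell was MACF1, named after its values were seen and a microtubule-actin linker like some DST forms (-0.24, adjusted p = 1.67e-07, edgeR). As shares of plakin RPKM, DST went from 7.93% ± 0.301 to 5.02% ± 0.0630 and PLEC from 63.7% ± 0.972 to 60.5% ± 0.0804 (SD, n = 3). PLEC thus held the main share in both groups although its own level was higher after DOX. The sizes of these shares depend on the length used. Merged exons of DST (42341 bases) and MACF1 (40739 bases) are longer than their longest coding transcripts (22431 and 24828 bases), and the SDs do not cover this.

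The order of the 7 genes per length changed at 3 places. In control libraries the mean RPKM was 76.5 for PLEC, 64.3 for ITGA6, 19.3 for ITGB4, 9.51 for DST, 4.35 for LAMB3, 0.264 for LAMA3 and 0.0396 for COL17A1. In shMUC1 libraries it was 112 for ITGA6, 87.1 for PLEC, 30.1 for ITGB4, 11.9 for LAMB3, 7.24 for DST, 1.67 for COL17A1 and 0.419 for LAMA3. Neighbours in either order did not overlap between libraries. ITGA6 passed PLEC, LAMB3 passed DST and COL17A1 passed LAMA3, so that COL17A1 was no longer the lowest of the 7. Merged exons of DST (42341 bases) and LAMA3 (14678 bases) are longer than their longest coding transcripts (22431 and 10661 bases). Per longest coding transcript, LAMB3 did not pass DST, with 13.0 ± 0.0798 and 13.7 ± 0.624 RPKM in shMUC1 libraries and overlapping values.

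**Figure D4:**
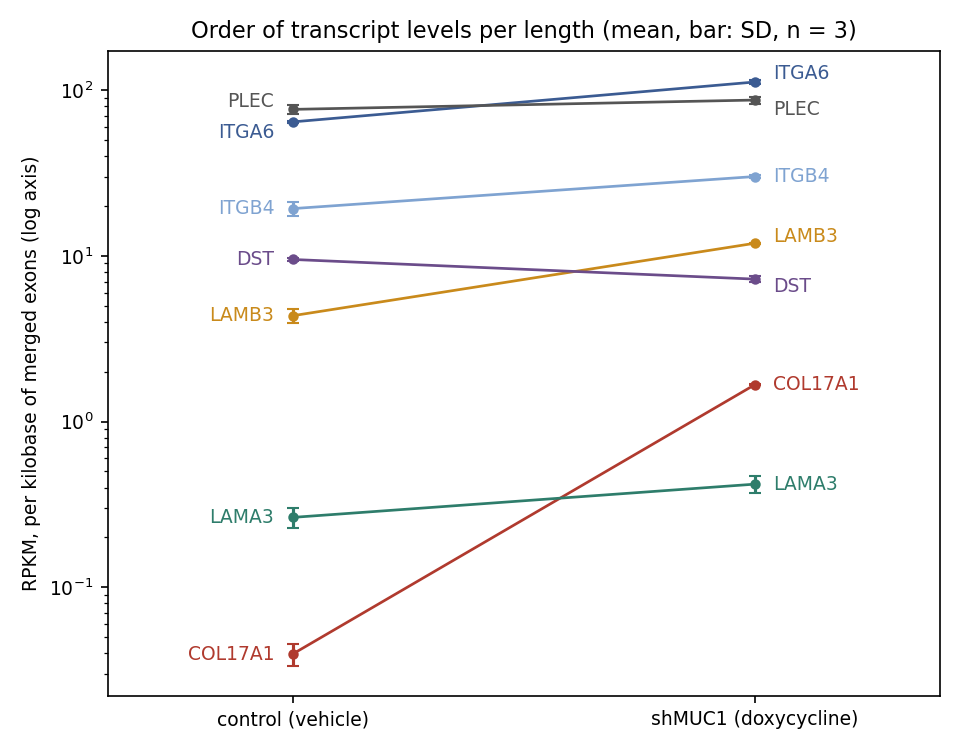
Mean RPKM per kilobase of merged exons on a log axis for the 7 genes in control and shMUC1 libraries, with bars for the SD over 3 libraries and a line joining the means of a gene. The lines of PLEC and ITGA6, of DST and LAMB3, and of LAMA3 and COL17A1 cross.

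The remaining hemidesmosome genes showed no common direction. Of 6 listed, 4 were tested, with 1 higher, 2 lower and 1 not called (median log2 fold change 0.00609). The shares over all tested genes were 25.2% higher and 23.6% lower. CD151, the tetraspanin partner of integrin α6β4, was called higher at 0.11 (adjusted p = 0.0391, edgeR), a call lost in 7 of 14 alternatives (adjusted p from 0.0208 to 0.350). COL7A1, the anchoring fibril collagen beneath the hemidesmosome, fell by 0.65 on the log2 scale (adjusted p = 5.91e-14, edgeR). ERBIN, a scaffold that binds β4, was at -0.09 (adjusted p = 0.0376, edgeR), a call lost in 6 of 14 alternatives (adjusted p from 0.00299 to 0.210). KRT5 and KRT14, the keratin pair that hemidesmosomes anchor in basal epidermis, were too low to test, at 0, 4 and 6 counts against 7, 19 and 0 for KRT5 and 0, 0 and 2 against 7, 2 and 2 for KRT14.

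Basal keratinocyte markers, which share this biology, were examined as a list of 9. They summed to 4.23 to 8.01 CPM in control and 13.1 to 16.0 CPM in shMUC1 libraries. Of 5 tested, 4 were called higher, where 25.2% of all genes were. CALML3 was at 0 throughout, and KRT14 and DSG3 were under a mean of 3 counts. KRT6A, named after its values were seen, went from 2, 4 and 2 to 195, 167 and 96 counts, a log2 fold change of 5.76 (adjusted p = 3.56e-17, edgeR), which is above the 5.38 of COL17A1. KRT6A has near-identical copies, so its count is uncertain. Thus KRT6A, like COL17A1, started from a few reads, while the epidermal keratins KRT5 and KRT14 were too low to test in either group. The part of these markers in the COL17A1 and laminin values was not tested.

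Desmosome genes, which join keratin to neighbouring cells instead of the matrix, were compared as the sister junction. Of 13 listed, 9 were tested, with 5 higher, 1 lower and 3 not called (median log2 fold change 0.17). Over all tested genes, 25.2% were higher and 23.6% lower. PKP3 rose by 1.41 (adjusted p = 8.73e-19), JUP by 1.0 (adjusted p = 3.15e-18) and PKP2 by 0.77 (adjusted p = 2.54e-14), all plaque proteins tested with edgeR. The 1 that fell was the cadherin DSC3, named after its values were seen (-0.47, adjusted p = 1.14e-06, edgeR). COL17A1, selected on its rise in this comparison, was at 5.38. LAMB3, at 1.45 ± 0.0690 (SE), was close to PKP3, at 1.41 ± 0.0714, the highest of the 9 tested genes of this list. DSP, a desmosome gene listed with the plakins, was at 1.46.

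Basement membrane genes around laminin-332 were split. Of 15 tested, 3 rose, 6 fell and 6 were not called (median log2 fold change -0.18). For these and the proteases below, the shares over all genes were 25.2% higher and 23.6% lower. The paired type IV collagens COL4A2 and COL4A1 rose by 0.71 (adjusted p = 1.43e-12) and 0.67 (adjusted p = 2.83e-09), and FRAS1, of the Fraser complex, fell by 0.54 on the log2 scale (adjusted p = 2.71e-06, all edgeR). Proteases that can process collagen XVII or laminin-332 included 7 tested of 9, with 1 higher, 3 lower and 3 not called (median -0.11). BMP1, which trims laminin chains, rose by 0.32 (adjusted p = 5.63e-05), MMP2 fell by 0.93 on the log2 scale (adjusted p = 1.26e-08), and MMP14 was at -0.40 (adjusted p = 0.0355, all edgeR), a call lost in 6 of 14 alternatives (adjusted p from 0.0240 to 0.151). ADAM9, a sheddase of collagen XVII named after its values were seen, also fell (-0.27, adjusted p = 4.01e-07, edgeR).

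Transcription factors that promote the epithelial state or, like the ZEB, SNAI and TWIST1 repressors, act against it were listed together, and 12 of 16 were tested, with 4 higher, 2 lower and 6 not called (median log2 fold change 0.21). Both roles were among the 4 called higher, where 25.2% of all genes were called higher and 23.6% lower. ELF3, an epithelial ETS factor, rose by 2.09 (adjusted p = 1.29e-15) and the repressor SNAI2 by 1.14 (adjusted p = 1.16e-13), while ZEB2 changed by -1.83 (adjusted p = 4.16e-28) and ZEB1 by -0.97 (adjusted p = 3.71e-13, all edgeR). TP63, the master factor of basal epithelia, had 12, 12 and 40 counts in control and 32, 26 and 16 counts in shMUC1 libraries. These groups overlapped (log2 fold change 0.22, adjusted p = 0.695, edgeR), and its sign turned without control replicate 1 (-0.01) or 2 (-0.06). GRHL2 and OVOL1 were at 0 in every library.

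**Figure D5:**
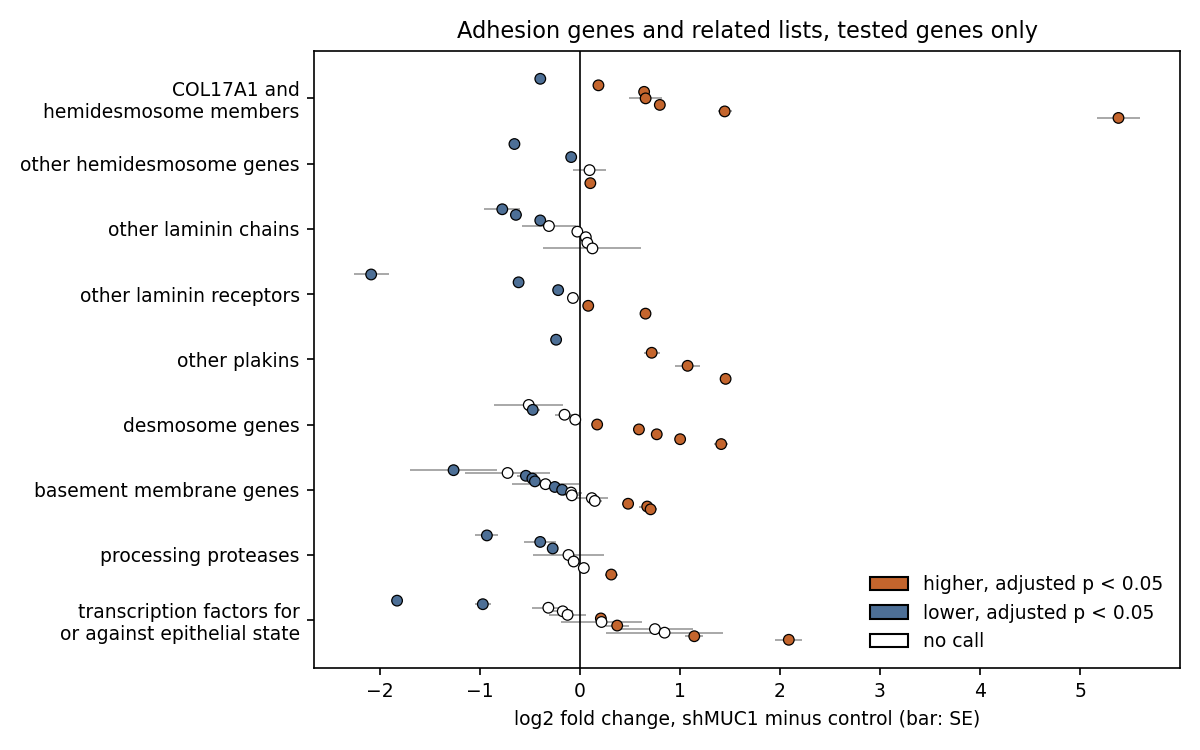
Each circle is the log2 fold change (shMUC1 minus control) of 1 tested gene with its SE, in rows for the 7 genes described and 8 related lists, orange where called higher, blue where called lower and white where not called (edgeR, adjusted p under 0.05). COL17A1, at 5.38, lies far to the right of the other genes plotted, which do not include the marker KRT6A, and the other rows spread to both sides of 0.

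Genes whose pattern lay closest to COL17A1 were ranked by Pearson r of log2 CPM over the 6 libraries, among 12211 genes averaging 50 counts or more. The top 5 were GPRC5A (r = 0.99989), TRIM29 (0.99987), NAP1L1 (0.99944), AK3 (0.99939) and NECAP1 (0.9993). TRIM29, a tripartite motif protein of squamous and basal epithelia, had 341, 362 and 350 counts in control and 2469, 2325 and 1595 counts in shMUC1 libraries, a log2 fold change of 2.60, and GPRC5A, a retinoic acid-induced receptor, went from 1332 ± 28.1 to 3022 ± 19.9 CPM. Among the 7 genes, r to COL17A1 was 0.9968 for ITGA6, 0.9886 for LAMB3, 0.9665 for ITGB4, 0.9095 for LAMA3, 0.7897 for PLEC and -0.9805 for DST. Counted from the highest r among the 12211 genes, these ranked 76, 421, 1222, 2429, 3650 and 11476 in that order. All 6 libraries fall into 2 groups and share their scaling, so these values describe the step between groups and how tight each group was.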

How the data were processed

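Polyadenylated RNA from 3 control and 3 shMUC1 cultures of MDA-MB-436 was sequenced with a stranded kit. What the authors deposited is a table of raw counts, with gene symbols as rows, 1 column per library and no pooling. The submitters' processing notes name CASAVA 1.8.2, STAR 2.7.9a, featureCounts, DESeq2 1.24.0 and build GRCh38.p7. The annotation release and the strand setting are not given in the sources used here. Among values from 1 to 20 counts, 68.8% to 70.5% were even, so counts were also halved.

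Counts were fitted with edgeR 4.0.16 (R 4.3.3) using TMM scaling, filterByExpr and group as the only term, in a two-sided quasi-likelihood test with Benjamini-Hochberg adjustment over 15355 genes. An adjusted p under 0.05 made a call. Standard errors were derived from the F statistic. CPM used TMM-scaled totals, and RPKM divided CPM by merged exon length from GENCODE release 29, which held 98.1% of the symbols. In the table, 14 names had been turned into dates. Promoter windows came from RefSeq, GRCh38.p14. The fit was also run on simulated data with a common dispersion and far fewer changed genes than were called here, balanced in direction. That run does not measure error rates in these data.

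The 7 genes and all lists were chosen with earlier results of these data known. Besides the 7, the text names CD151, TP63, ZEB1 and up to 3 called genes per list with the largest absolute log2 fold change and a mean of at least 50 counts. A further gene named by this rule is not reported here. The text also names MUC1, the 2 nearest tested genes on either side of COL17A1 and the 5 genes most correlated with it. Genes of lists with few calls that fall outside this rule are marked as named after their values were seen. Nothing beyond the labels' triplicate cultures says that the samples are independent, so p-values measure the spread between these samples, which may be technical. Libraries of 1 group differed with a chi-square per degree of freedom of at least 2.79, and none was counted as a duplicate. Sampling noise alone would raise this measure if a fragment added 2 counts. Repeat libraries of the same culture could also reach it, so it cannot exclude them. Alternatives were other scalings, filters and tests, halved counts, a replicate block, each library left out, and for ratios another gene length.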

Additional observations from a re-analysis of the deposited data

How the results depend on the processing

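For the 7 genes, all 98 alternative values had the same sign and the same call, with log2 fold changes from 5.22 to 5.48 for COL17A1, 0.55 to 0.73 for LAMA3 and 0.15 to 0.23 for PLEC. For other genes picked by the naming rule, and MUC1, 479 of 503 values did so, which leaves out genes named after their values were seen. The replicate numbers did not pair the samples (correlations of deviations 0.00493, -0.0324 and -0.0382), and with a replicate block 6 of the 7 genes were called higher and 1 lower, with 3885 and 3591 of all genes. Requiring a fold change over 2 left 2 of the 7 higher and 0 lower, and 339 and 575 of all genes. Per longest coding transcript, mean LAMA3 to LAMB3 moved from 0.0612 to 0.0774 in control and from 0.0352 to 0.0445 in shMUC1 libraries. COL17A1 to ITGB4 in shMUC1 libraries moved from 0.0555 to 0.0604. These shifts exceeded the SD between libraries, while the other ratio means moved by less than theirs. Log2 differences between groups do not depend on the length. Other hemidesmosome genes called higher came to 0 with library totals only, with a mean of at least 50 counts or with DESeq2, and those called lower to 1 with no low-count filter. Other laminin receptors called higher came to 1 with library totals only or a mean of at least 50 counts. Leaving out 1 library in turn gave 0 to 1 other hemidesmosome genes called higher and 1 to 2 called lower, 0 to 2 other laminin chains higher and 1 to 2 other laminin receptors higher. It moved TP63 from -0.0647 to 0.951 and STN1 from -0.14 to 0.13 on the log2 scale, neither called, and STN1 was at 0.00575 with limma-voom. In these lists the calls lost were those of CD151, without any 1 control replicate or shMUC1 replicate 2, of ERBIN, without control replicate 1 or 2 or any 1 shMUC1 replicate, and of ITGB1, without control replicate 1 or 3 or shMUC1 replicate 1 or 2. The cause was not tested. Depth limits COL17A1 in control libraries, at 6 to 7 counts each, and LAMA3 in all.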
